A study of Mus musculus with 26 samples.

Results

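Endoplasmic reticulum chaperones and genes of the integrated stress response, 10 in all, were followed in T cell precursors taken from 3 tissues of the mouse: Hspa5, Hsp90b1, Dnajb9, Pdia4, Calr, Herpud1, Xbp1, Atf4, Ddit3 and Ppp1r15a. The genes were chosen by symbol, with earlier results of these data known, and all 10 were found among the 13765 genes of the table. The cells were viable CD4+CD8b+TCR- cells, that is, double-positive (DP) cells with both coreceptors and no surface T cell receptor in the sort. They came from the thymus, the mediastinal adipose tissue and the aortic arch of female C57BL/6J mice of 8 weeks, a wild-type inbred strain, with no treatment given in the labels. Each pool joined the tissue of 5 mice. Portions of 400 cells were sorted, and low-input libraries were made from 200 cells each, with 18 cycles of cDNA amplification and single-end reads of 50 bases. Each tissue had 4 pools, made up of 9 libraries for thymus, 8 for adipose tissue and 9 for arch, and the libraries of a pool shared 1 column of values. The arch and the adipose tissue were digested before sorting, and the labels state no digestion for the thymus, so tissue and digestion cannot be told apart.

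Proteins that enter the endoplasmic reticulum fold there with the help of chaperones, and an excess of unfolded protein is sensed by IRE1, PERK and ATF6 in what is called the unfolded protein response. ATF6 and the spliced form of XBP1 raise the transcription of chaperones and of degradation factors, while PERK phosphorylates the translation factor eIF2. Phosphorylation of eIF2, by PERK or by kinases that sense amino acid shortage, heme or viral RNA, lowers general translation and favours translation of ATF4. This shared branch is the integrated stress response. DP thymocytes are not secretory cells, and XBP1 is best known in the lymphoid lineage from plasma cells, which secrete antibody.

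The 12 columns held between 11577253 and 34599519 recovered reads, or 5788626 to 14921918 per library, with the fewest per library in thymus pool 3 and arch pools 2 and 4. The column of adipose pool 2, which was 1 library, held 14279190 reads, fewer than arch pool 4 with 14291241. Genes of the sort and of DP thymocytes (9 genes, among them Cd4, Cd8a, Cd8b1 and Rag1) were detected in every tissue, and their summed normalised read counts were 306649 to 377272 in thymus pools, 119456 to 243938 in adipose pools and 174110 to 209472 in arch pools. Within these sums Cd24a went the other way. Its counts were 7865 to 17280 in thymus pools, 32950 to 50740 in adipose pools and 47790 to 76520 in arch pools. Some pools stood apart by markers of other cells. Summed fibroblast markers reached 146988 in arch pool 4 against at most 10238 in the other pools, and summed smooth muscle markers reached 42501 in arch pool 2 against at most 1416 elsewhere. Summed macrophage and monocyte markers reached 21451 in arch pool 2 and 4961 in adipose pool 1, with at most 199 in the other pools. Adipose pool 1 also held 25381 of B cell markers, against at most 6880 elsewhere. Its summed endothelium markers were 6110, against at most 2626 elsewhere, and Cdh5, Kdr, Tie1, Emcn and Cldn5 were detected only there. Summed adipocyte markers (5 of 10 genes in the table) were 3697 in that pool, against at most 1143 elsewhere. The sums of plasma cell markers (8 of 10 genes in the table) were low, at 320 to 871 in thymus, 278 to 1717 in adipose tissue and 15.2 to 1096 in arch. The plasma cell gene Igj was at 0 in all pools of thymus and adipose tissue, and Sdc1 in all pools of thymus. Prdm1 was also at 0 in all pools of thymus, but reached 234 in adipose tissue and 491 in arch. Irf4 reached 847 in adipose pool 1 and 532 in arch pool 1, against at most 227 in thymus. Much of the thymus sums was Tnfrsf13b, at 320 to 871, which was 162 to 449 in adipose tissue and 0 to 120 in arch. The part of these other cells in the differences below was not tested beyond leaving out single pools and arch pools 2 and 4 together. In bulk samples, fewer cells of a type and less RNA per cell cannot be told apart.

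Values are normalised read counts, and differences are log2 differences of (count + 20) from limma, with p-values adjusted by Benjamini-Hochberg over the 9106 genes tested. All 10 genes were among those tested. The labels do not state that the 4 pools of a tissue came from different mice, so the p-values measure only the spread between these pools. A gene is said to have risen where its adjusted p was under 0.05. In the arch, 6 of the 10 genes rose against thymus and none fell (Hspa5, Dnajb9, Herpud1, Atf4, Ddit3 and Ppp1r15a), where 3.99% of all genes tested rose and 6.57% changed in either direction. In adipose tissue, 3 of the 10 rose and none fell (Hspa5, Dnajb9 and Ppp1r15a), where 2.17% of all genes rose and 2.84% changed in either direction. All 10 estimates were above 0 in both comparisons. The median log2 difference of the 10 was 1.43 in the arch and 0.96 in adipose tissue, and that of all genes tested was -0.20 and -0.01. The comparisons share the thymus pools. Because the 10 genes were chosen with earlier results of these data known, the shares of all genes describe them and are no independent test. Every arch pool lay above every thymus pool for 7 of the 10 genes, which was so for 6.6% of all genes, and every adipose pool did for 4 of the 10, against 5.48% of all genes. Within pools 2 to 4, leaving out pool 1 whose libraries carry other letter codes in the labels, 4 of the 10 genes rose in the arch and 1, Hspa5, in adipose tissue. The arch calls of Herpud1 and Ddit3 were lost there. Of the 9106 genes tested, 228 rose in the arch and 130 in adipose tissue under that setting.

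**Figure D1:**
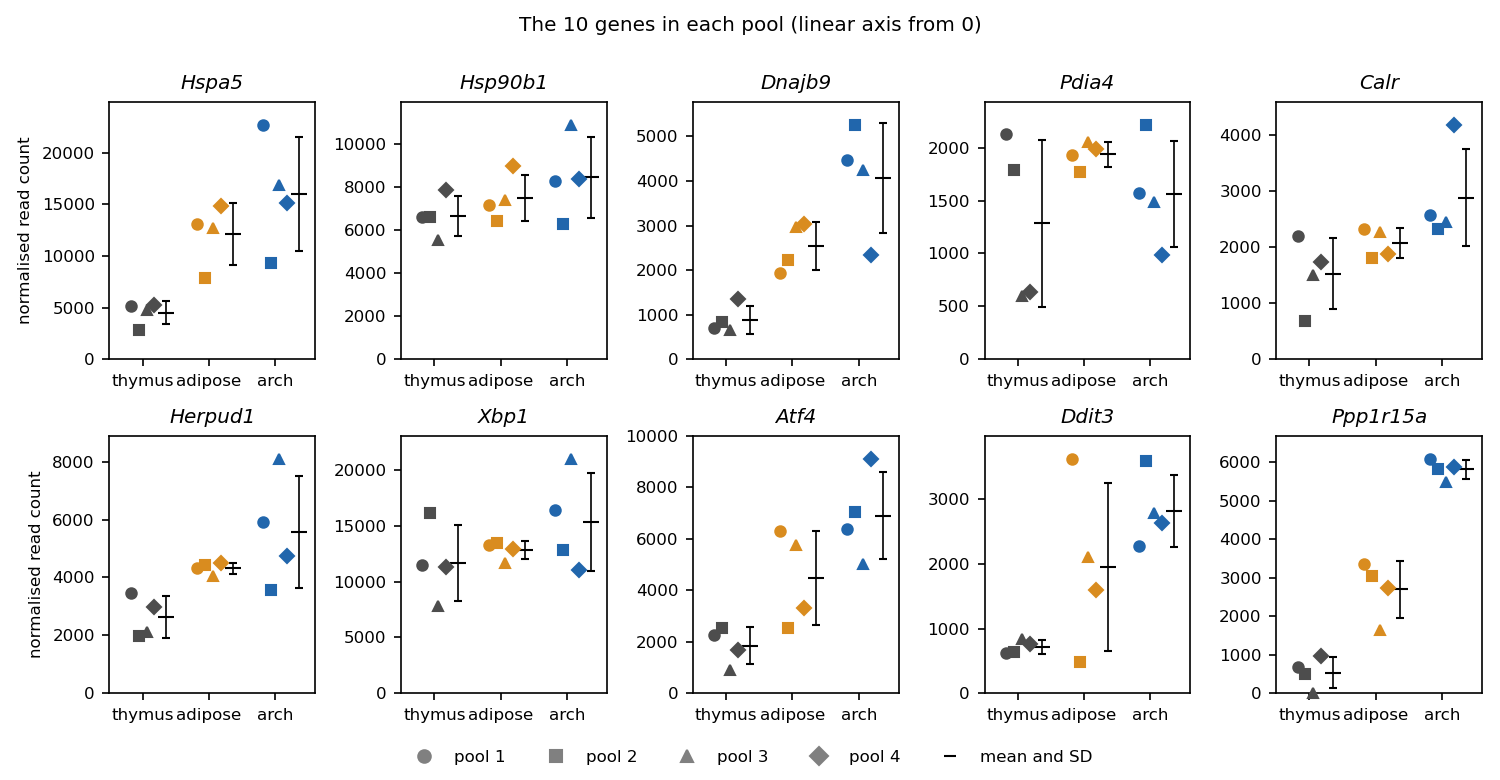
Normalised read count (linear axis from 0) of each of the 10 genes in the 4 pools of thymus, adipose tissue and arch; symbols stand for pool numbers and the bars for the mean and SD over 4 pools. The thymus pools of Hspa5, Dnajb9, Herpud1 and Ppp1r15a lie below all pools of the other tissues, while those of Hsp90b1, Pdia4 and Xbp1 overlap both.

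Hspa5 encodes BiP, the Hsp70 chaperone of the endoplasmic reticulum lumen, which also holds the stress sensors inactive (chr2:34771970-34777547, GRCm38). Its normalised read counts were 5109, 2824, 4789 and 5261 in thymus pools 1 to 4, 13140, 7909, 12696 and 14803 in adipose pools 1 to 4, and 22690, 9338, 16925 and 15114 in arch pools 1 to 4. The lowest pool outside the thymus was above the highest thymus pool, and pool 2 was the lowest in each tissue. Hspa5 rose by a log2 difference of 1.80 ± 0.28 (SE) in the arch (limma, adjusted p = 0.000508), from a mean of 4496 ± 1132 (SD, n = 4 pools) to 16017 ± 5501, and by 1.43 ± 0.28 in adipose tissue (12137 ± 2961; adjusted p = 0.00597). The rise was as large without arch pools 2 and 4, at 2.16 on the log2 scale, and both calls held under all 18 other settings tried.

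Dnajb9 encodes ERdj4, a J-domain cochaperone that brings clients to BiP and is a known target of spliced XBP1 (chr12:44205559-44210326). Its counts were 700, 830, 654 and 1349 in the thymus pools, 1939, 2222, 2958 and 3039 in the adipose pools, and 4467, 5256, 4237 and 2343 in the arch pools. Neither extrathymic tissue overlapped with thymus, and 3 of the 4 arch pools were above all adipose pools. Dnajb9 rose by 2.18 ± 0.38 on the log2 scale in the arch (adjusted p = 0.00123, limma) and by 1.54 ± 0.38 in adipose tissue (adjusted p = 0.0293). The arch call held under all 18 other settings. The adipose call was lost without thymus pool 1, 2 or 3 (adjusted p = 0.0804, 0.0637 and 0.0743) and without adipose pool 3 or 4 (0.107 and 0.115), with log2 differences that stayed between 1.42 and 1.76.

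The other chaperones of the lumen did not pass the test in either comparison. Hsp90b1, which encodes the Hsp90 family chaperone GRP94 (chr10:86690209-86705509), had counts of 5551 to 7861 in thymus, 6420 to 8995 in adipose tissue and 6306 to 10905 in arch. Its log2 difference was 0.33 in the arch (95% interval -0.14 to 0.80; adjusted p = 0.402, limma) and 0.17 in adipose tissue (-0.30 to 0.64; adjusted p = 0.849). The upper bounds correspond to 1.74-fold and 1.56-fold, below the lower bounds of Hspa5 (2.30-fold and 1.78-fold). The ratio of Hspa5 to Hsp90b1 counts within a pool ran from 0.425 to 0.863 in thymus, from 1.23 to 1.83 in adipose tissue and from 1.48 to 2.73 in arch, so the thymus ratios did not overlap with the others. This ratio is of read counts, not of levels per length.

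Calr encodes calreticulin, a calcium-binding lectin chaperone of glycoproteins (chr8:84841850-84846934). Its counts were 2200, 678, 1494 and 1736 in the thymus pools, 2324, 1812, 2265 and 1868 in the adipose pools, and 2571, 2326, 2447 and 4175 in the arch pools. All arch pools were above all thymus pools, and the highest value was that of arch pool 4, the pool with the fibroblast markers. The log2 difference from thymus was 0.98 in the arch (95% interval 0.16 to 1.81; adjusted p = 0.142, limma) and 0.79 without arch pool 4. Pdia4, which encodes a disulfide isomerase of the lumen (chr6:47796141-47813430), had counts of 2131, 1788, 594 and 633 in the thymus pools, against 1772 to 2057 in adipose tissue and 989 to 2214 in arch. Its thymus pools split into a high pair and a low pair, and the interval of its arch difference was wide, from -0.54 to 1.44 on the log2 scale.

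Herpud1 encodes a membrane protein of the degradation complex that removes misfolded proteins from the endoplasmic reticulum (chr8:94386438-94395377). Its counts were 3470, 1966, 2128 and 2976 in the thymus pools, 4316, 4431, 4053 and 4487 in the adipose pools, and 5921, 3570, 8080 and 4741 in the arch pools. Every pool outside the thymus was above every thymus pool, and the adipose pools lay within 1.11-fold of each other. Herpud1 rose in the arch by 1.05 ± 0.30 on the log2 scale (adjusted p = 0.0404, limma), while its adipose difference of 0.75 (95% interval 0.13 to 1.37) had an adjusted p of 0.261. The arch call was near the threshold, with an adjusted p of 0.107, 0.0901 and 0.0629 without thymus pool 2, 3 or 4, and of 0.0773 and 0.11 without arch pool 1 or 3. It was 0.0595 with no filter on low values, and the call was also lost in pools 2 to 4. Without arch pools 2 and 4 the difference was 1.42, with an adjusted p of 0.0162.

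Xbp1, whose mRNA is spliced by IRE1 to give the active transcription factor (chr11:5520659-5525893), did not pass the test. Its counts ran from 7857 to 16156 in thymus, from 11621 to 13451 in adipose tissue and from 11031 to 20937 in arch, with wide overlap. The log2 difference was 0.39 in the arch (95% interval -0.10 to 0.88; adjusted p = 0.335, limma) and 0.18 in adipose tissue (-0.31 to 0.66). The counts join the spliced and unspliced forms, which were not analysed here. Per kilobase of transcript, Xbp1 was the highest of the 10 genes in each tissue, at 5491 ± 1601 normalised reads per kilobase (mean ± SD, n = 4 pools) in the thymus pools, 6021 ± 389 for adipose tissue and 7186 ± 2055 for the arch.

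The 250 bases before the annotated start of each of the 10 genes (RefSeq, GRCm38.p6) were searched on both strands for 6 short motifs tied to these pathways. They are the endoplasmic reticulum stress element (ERSE, CCAAT and CCACG separated by 9 bases), ERSE-II (ATTGG and CCACG separated by 1 base), the core of the unfolded protein response element (TGACGTGG), the C/EBP-ATF response element (CARE, TGATGNAA), the cAMP response element (CRE, TGACGTCA) and the heat shock element. The 4 genes below are shown because their windows hold ERSE or ERSE-II. ERSE lay in the windows of Hspa5, Hsp90b1 and Calr and in 0.113% of all 32851 windows, and ERSE-II in that of Herpud1 and in 0.0304% of all. Capitals mark the matches, which in Calr and in the second match of Hsp90b1 are on the other strand, and the first match in Herpud1 is a CARE on the other strand. Each run is 5′ to 3′ on the strand of the gene and ends at the base before the start.
Hspa5: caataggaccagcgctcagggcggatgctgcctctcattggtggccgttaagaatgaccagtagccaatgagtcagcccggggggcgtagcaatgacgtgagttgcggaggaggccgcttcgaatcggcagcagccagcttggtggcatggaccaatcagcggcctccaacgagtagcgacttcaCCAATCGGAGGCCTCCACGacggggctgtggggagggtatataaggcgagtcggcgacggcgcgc
Hsp90b1: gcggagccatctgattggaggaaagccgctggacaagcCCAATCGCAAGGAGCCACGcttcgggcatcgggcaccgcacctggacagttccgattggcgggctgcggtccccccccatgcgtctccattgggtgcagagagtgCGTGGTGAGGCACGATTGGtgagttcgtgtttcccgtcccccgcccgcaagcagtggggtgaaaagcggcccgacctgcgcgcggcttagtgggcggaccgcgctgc
Calr: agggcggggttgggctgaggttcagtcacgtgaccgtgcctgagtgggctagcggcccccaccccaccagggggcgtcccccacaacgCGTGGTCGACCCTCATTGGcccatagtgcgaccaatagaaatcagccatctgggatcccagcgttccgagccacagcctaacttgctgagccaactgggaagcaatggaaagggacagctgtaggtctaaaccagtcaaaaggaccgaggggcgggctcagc
Herpud1: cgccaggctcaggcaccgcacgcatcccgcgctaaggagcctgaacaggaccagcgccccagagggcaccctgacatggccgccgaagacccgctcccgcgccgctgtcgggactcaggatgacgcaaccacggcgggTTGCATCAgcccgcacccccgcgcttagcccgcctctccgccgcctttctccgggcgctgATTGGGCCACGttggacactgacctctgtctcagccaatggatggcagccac

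These windows are chr2:34771840-34772089 (Hspa5, plus strand), chr10:86705445-86705694 (Hsp90b1, minus strand), chr8:84846932-84847181 (Calr, minus strand) and chr8:94386179-94386428 (Herpud1, plus strand). Distances are from the RefSeq starts. In the GENCODE annotation, Hspa5, Hsp90b1 and Calr start inside these windows, upstream of the RefSeq start, and the ERSE of Hspa5 lies after the GENCODE start. The ERSE begins 65 bases before the start in Hspa5, 212 and 107 bases before it in Hsp90b1 and 162 bases before it in Calr, and the ERSE-II begins 52 bases before it in Herpud1. Of the 3 genes with an ERSE, Hspa5 rose in both tissues, while Hsp90b1 and Calr did not pass the test in either. The genes were not tested against each other, and the arch intervals of Calr (0.16 to 1.81) and Hspa5 (1.20 to 2.40 on the log2 scale) overlap. Dnajb9 rose in both tissues and held none of the 6 motifs in its window, nor did Pdia4, Xbp1, Atf4 and Ddit3. The Dnajb9 window (chr12:44210069-44210318, minus strand) lies wholly after its GENCODE start at 44210326, so the bases before that start were not searched. Ddit3 also starts inside its window in GENCODE. A match describes the letters only, and sites outside these windows were not searched.

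Atf4 encodes the transcription factor at the centre of the integrated stress response (chr15:80255184-80257541). Its counts were 2282, 2554, 916 and 1683 in the thymus pools, 6293, 2550, 5770 and 3322 in the adipose pools, and 6402, 7030, 5035 and 9092 in the arch pools. The arch pools were all above the thymus pools, while adipose pool 2, which was 1 library, lay just below the highest thymus pool. Atf4 rose in the arch by 1.95 ± 0.37 on the log2 scale (adjusted p = 0.00269, limma), and had a difference of 1.26 in adipose tissue (95% interval 0.49 to 2.03; adjusted p = 0.0785). The arch call was lost without thymus pool 3 and arch pools 2 and 4 together (1.40, adjusted p = 0.0685). The adipose difference passed the test without adipose pool 2 (1.5, adjusted p = 0.0377) and under DESeq2 (1.27, adjusted p = 0.018). ATF4 is regulated mainly at translation, which these mRNA counts do not measure.

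Ddit3 encodes CHOP, a transcription factor induced by ATF4 (chr10:127290774-127296288). Its counts were 620, 642, 846 and 767 in the thymus pools, 3623, 485, 2106 and 1604 in the adipose pools, and 2287, 3601, 2796 and 2629 in the arch pools. The arch pools were all above the thymus pools, and the adipose pools held both the lowest and the highest value of the 12. Ddit3 rose in the arch by 1.94 ± 0.51 on the log2 scale (adjusted p = 0.0274, limma) but had a difference of 1.11 in adipose tissue (95% interval 0.05 to 2.18; adjusted p = 0.364). Without adipose pool 2 the adipose difference was 1.66, with an adjusted p of 0.0401, and under DESeq2 it was 1.44, with an adjusted p of 0.0455. The arch call was lost without thymus pool 1, 2 or 4 (adjusted p = 0.0657, 0.0607 and 0.0553) and without arch pool 2 or 3 (0.0674 and 0.0534), with a log2 difference of 1.82 to 2.03 over the pools left out. It was also lost without arch pools 2 and 4 (adjusted p = 0.139) and with no filter on low values (0.0532). Further losses were in pools 2 to 4, and without thymus pool 3 and arch pools 2 and 4 together. Ddit3 shares 68 exon bases with Mars on the opposite strand, as Hsp90b1 shares 415 with 1810014B01Rik and Cebpb 312 with Tmem189. With opposite-strand genes that are not in the table, Sec62 shares 509 exon bases, Eif2ak3 485, Rnf5 366 and Ppp1ca 225 (Rad9a). Whether reads were counted by strand is not given in the sources used here.

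In adipose tissue, Atf4 and Ddit3 ranked the 4 pools in the same order, with pool 1 highest, then pools 3, 4 and 2. In arch and thymus their orders differed. Adipose pool 1 was also the pool with the B cell, macrophage, endothelium and adipocyte markers, whose part in these values was not tested. Without that pool, the adipose differences were 1.07 for Atf4 and 0.72 for Ddit3 on the log2 scale. The ratio of Ddit3 to Atf4 counts had overlapping ranges in the 3 tissues, 0.252 to 0.924 in thymus, 0.190 to 0.576 in adipose tissue and 0.289 to 0.555 in arch.

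**Figure D2:**
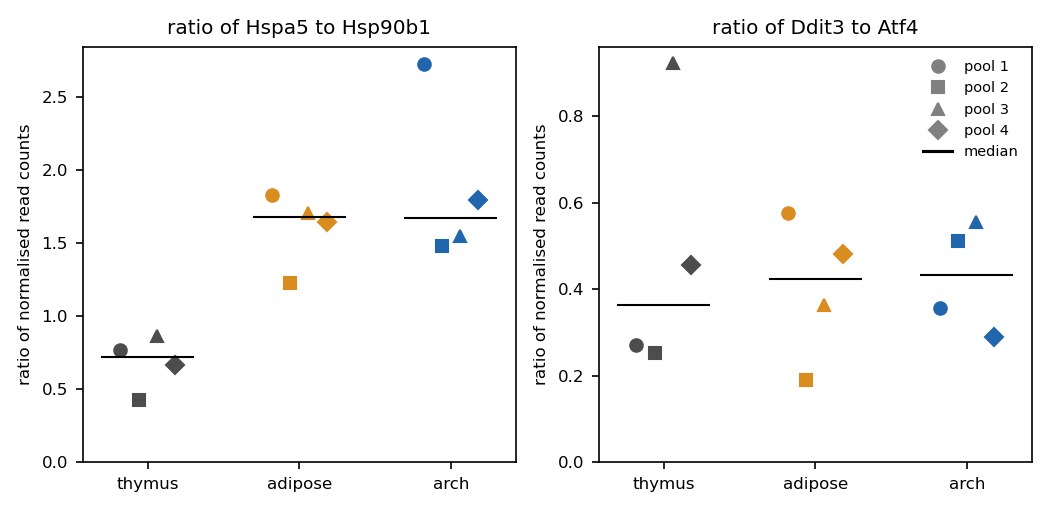
Ratio of the normalised read counts of Hspa5 to Hsp90b1 (left) and of Ddit3 to Atf4 (right) in each pool of the 3 tissues, on linear axes from 0; symbols stand for pool numbers and lines for the median of 4 pools. The thymus pools have a Hspa5 to Hsp90b1 ratio of at most 0.863 and the other pools of at least 1.23, while the Ddit3 to Atf4 ratios overlap.

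Ppp1r15a encodes GADD34, the stress-induced subunit that directs protein phosphatase 1 to eIF2 and so restores translation (chr7:45522916-45526268). Its counts were 681, 506, 0 and 985 in the thymus pools, 3360, 3061, 1650 and 2732 in the adipose pools, and 6084, 5821, 5505 and 5872 in the arch pools. The ranges of the 3 tissues did not overlap, and the arch pools lay within 1.11-fold of each other. The mean of the arch was 10.7-fold that of thymus (5820 against 543) and the mean of adipose tissue 4.97-fold (2701). Ppp1r15a rose by 4.31 ± 0.83 on the log2 scale in the arch (adjusted p = 0.00315, limma) and by 3.16 ± 0.83 in adipose tissue (adjusted p = 0.0456). These sizes rest on the 0 in thymus pool 3, and without that pool they were 3.02 and 1.87, with adjusted p of 4.61e-05 and 0.00579. With a pseudocount of 1 they were 5.42 and 4.26, and with 100 they were 3.64 and 2.51. Thymus pool 3 was shallow, and 337 of the genes tested (3.7%) were likewise at 0 there with at least 100 in each other thymus pool. The arch call was lost with a pseudocount of 1 (adjusted p = 0.0542) and under edgeR (0.0578). The adipose call was lost without thymus pool 2 (0.0534) and without each adipose pool in turn (0.127, 0.101, 0.0752 and 0.114 for pools 1 to 4), and also with a pseudocount of 1 (0.22), with no filter on low values (0.155), under edgeR (0.306) and under DESeq2 (0.146).

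The window before the start of Ppp1r15a, chr7:45526269-45526518 on the minus strand, is shown because the gene had the largest estimate of the 10 in both comparisons. It holds a CRE (in capitals) that begins 12 bases before the start, and the same motif lies in 1.55% of all windows.
Ppp1r15a: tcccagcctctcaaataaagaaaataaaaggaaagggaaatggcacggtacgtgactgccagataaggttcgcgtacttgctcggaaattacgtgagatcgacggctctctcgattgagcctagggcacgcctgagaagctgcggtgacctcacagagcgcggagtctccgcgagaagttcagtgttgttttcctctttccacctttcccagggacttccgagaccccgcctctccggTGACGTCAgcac
The CARE in the Herpud1 window begins 112 bases before the start, and that motif lies in 3.45% of all windows. No window of the 10 held the unfolded protein response element core (0.563% of all windows) or the heat shock element (0.466%).

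**Figure D3:**
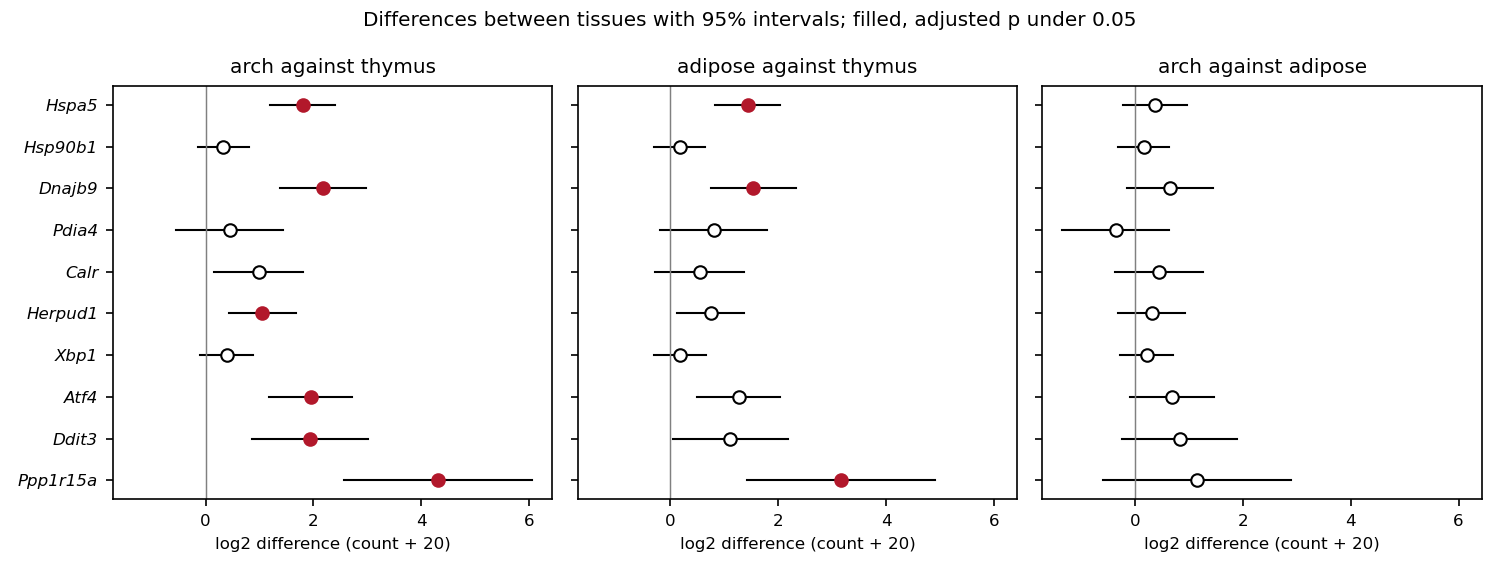
Log2 difference of (count + 20) of each of the 10 genes in the arch against thymus, adipose tissue against thymus and the arch against adipose tissue; points are limma estimates over 4 pools a tissue, lines 95% intervals, and filled points have an adjusted p under 0.05. The first panel has 6 filled points, the second has 3 and the third none.

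Between the arch and adipose tissue, none of the 10 genes passed the test by limma, edgeR or DESeq2, and none had an unadjusted p under 0.05 by limma. Of all genes tested, 0.176% changed in this comparison. The estimates were above 0 for 9 of the 10, with a median of 0.40 (all genes, -0.17), and Pdia4 was the exception at -0.36. All arch pools were above all adipose pools for 2 of the 10, Ppp1r15a and Calr, against 2.46% of all genes. The interval of Hspa5 was -0.23 to 0.97 on the log2 scale, that of Atf4 -0.09 to 1.45 and that of Ppp1r15a -0.60 to 2.90, so differences of up to 1.95-fold, 2.74-fold and 7.45-fold lay within them.

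Per kilobase of transcript, the order of the 10 genes changed between tissues. In thymus it ran from Xbp1 and Hsp90b1 (2359 ± 334) through Herpud1 (1350 ± 364), Hspa5 (1224 ± 308) and Atf4 (1078 ± 421) to Ddit3, Calr, Pdia4, Dnajb9 and Ppp1r15a (193 ± 147). In arch, Xbp1 was followed by Hspa5 (4362 ± 1498), Atf4 (3994 ± 979), Ddit3 (3178 ± 626), Hsp90b1 (3001 ± 667) and Herpud1 (2858 ± 986), then by Ppp1r15a, Dnajb9, Calr and Pdia4 (652 ± 210). Within either tissue, neighbours from Herpud1 to Atf4 in thymus and from Hspa5 to Herpud1 in arch differed by less than the sum of their SDs. In adipose tissue, Hspa5 (3305 ± 806) was second and Pdia4 (807 ± 50.5) last.

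The pools varied least for Herpud1, Pdia4 and Xbp1 in adipose tissue, with coefficients of variation of 4.46%, 6.26% and 6.46%, and for Ppp1r15a in arch, with 4.11%. They varied most for Ppp1r15a in thymus (76%) and Ddit3 in adipose tissue (66.6%). Across the 12 columns, log2 values of Hspa5 went most closely with Herpud1 among the other 9 genes (Pearson r = 0.886), and those of Atf4 with Ppp1r15a (0.853) and Ddit3 (0.818). Pdia4 had its highest r, 0.535, with Ppp1r15a. Such values describe 12 columns that share their tissue and their depth, and carry no test.

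Genes tested were also ranked by likeness to 4 members, leaving out predicted genes (Gm and digits) and symbols ending in Rik. Those most like Hspa5 over the 12 columns were Metap2 (Pearson r = 0.93), Eif5 (0.93), Clk3 (0.928), Odc1 (0.927) and Ndel1 (0.918). Atf4 was most like Klf2 (0.948), Ascc3 (0.947), Dnajb6 (0.923), Mapk1ip1l (0.919) and Eif1 (0.916). Ddit3 was most like Evi2a (0.946), Tctn3 (0.932), Cdk11b (0.919), Elovl5 (0.917) and Ipo5 (0.914). Evi2a and Tctn3 had thymus means of 0 and 0.364 normalised reads. The likest to Xbp1 had lower values, from 0.875 for Pcnp and 0.87 for Atad1 to 0.838 for Zfp866, 0.804 for Syap1 and 0.796 for Pigm.

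The wider pathway was read from 173 other genes in 8 lists, of which 168 were in the table and 156 were tested. In the arch 8 rose and 3 fell (7.05% of those tested, against 6.57% of all genes), and in adipose tissue 6 rose and 1 fell (4.49%, against 2.84%). Their median log2 difference was 0.18 in the arch and 0.23 in adipose tissue, where the 10 genes had 1.43 and 0.96. Between arch and adipose tissue none passed the test by limma or edgeR, and 3 did by DESeq2.

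The remaining chaperone lists held few changes. In the Hsp70 cycle of the endoplasmic reticulum (13 genes tested), Cnpy2 fell in the arch by 1.68 on the log2 scale (adjusted p = 0.0311, limma) and no gene changed in adipose tissue. That call was lost when any 1 thymus pool, or arch pool 2 or 4, was left out, with an adjusted p of up to 0.181 over the settings tried. It was also lost under edgeR (adjusted p = 0.0553) and without arch pools 2 and 4 together (adjusted p = 0.155, limma). None of the 14 disulfide exchange genes and none of the 17 genes of glycoprotein folding and glycan transfer changed in either comparison. Of the 24 translocation genes, Sec62, a subunit of the translocation channel, rose in the arch (1.25 ± 0.21, adjusted p = 0.000746) and in adipose tissue (0.97 ± 0.21, adjusted p = 0.00988). Its adipose call was lost in pools 2 to 4 (0.99, adjusted p = 0.0712).

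Among 27 genes of endoplasmic reticulum-associated degradation, Ube2j1, a ubiquitin-conjugating enzyme of that membrane, rose in the arch by 2.04 ± 0.36 on the log2 scale (adjusted p = 0.00162, limma), from 995 to 1837 normalised reads in the thymus pools to 4654 to 8145. Selk rose in the arch by 1.16 ± 0.24 (adjusted p = 0.00509), a call lost without arch pools 2 and 4 (0.89, adjusted p = 0.0781). The ubiquitin ligase gene Rnf5 fell in both tissues, by 1.23 in the arch (adjusted p = 0.0488) and 1.56 in adipose tissue (adjusted p = 0.021). The arch call of Rnf5 was lost without each pool in turn except arch pool 3, and the adipose call without thymus pool 1, 2 or 3 or adipose pool 4 (adjusted p of up to 0.295 and 0.089 over the settings tried). The arch call was also lost under edgeR (adjusted p = 0.0771), TMM scaling, a pseudocount of 1 and no filter on low values. Leaving out arch pools 2 and 4 together lost it too (adjusted p = 0.2, limma). Both calls were lost in pools 2 to 4.

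Of the sensors, Eif2ak3, which encodes PERK, was the gene of its list (10 tested) that changed. Its counts were 412 to 1037 in thymus, 1826 to 9311 in adipose tissue and 2667 to 6545 in arch, with no overlap with thymus. It rose by 2.57 ± 0.47 on the log2 scale in the arch (adjusted p = 0.00218, limma) and by 2.93 ± 0.47 in adipose tissue (adjusted p = 0.000927), and both calls held under all 18 other settings. The other sensor genes and eIF2 kinases are named here after their values were seen. Ern1, which encodes IRE1, had at most 112 normalised reads in any pool and was below the filter. Atf6 ranged from 0 to 657 in thymus and from 0 to 1244 in arch, and did not pass the test. Eif2ak4, which encodes the amino acid sensor GCN2, was at 0 in 3 arch pools and 10.5 in the fourth. It had 107 to 228 in adipose tissue and 0.748 to 152 in thymus, and did not pass the test in any comparison. Eif2ak1 ranged from 33.5 to 1824 in thymus, from 1231 to 2848 in adipose tissue and from 885 to 3659 in arch. Eif2ak2 had at most 995 in any pool. Neither passed the test in any comparison.

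Among the 20 genes of eIF2, its exchange factor, kinases and phosphatase, Impact, which encodes an inhibitor of GCN2, rose by 2.66 ± 0.44 on the log2 scale in the arch (adjusted p = 0.000824, limma) and by 2.15 ± 0.44 in adipose tissue (adjusted p = 0.00799). The adipose call was lost in pools 2 to 4 (2.10, adjusted p = 0.0738). Ppp1ca, a catalytic subunit of protein phosphatase 1, fell in the arch by 0.85 (adjusted p = 0.021), from 20198 to 23623 normalised reads in thymus to 9237 to 15829. That call was lost without thymus pool 2 or 3 or arch pool 2 (adjusted p of up to 0.253 over the settings tried). It was also lost under edgeR (adjusted p = 0.0516) and without arch pools 2 and 4 together (adjusted p = 0.182, limma). The catalytic subunit genes Ppp1cb and Ppp1cc had arch estimates above 0, at 0.45 and 0.57, and did not pass the test (adjusted p = 0.504 and 0.0847, limma). Ppp1r15b, the constitutive partner subunit, had a log2 difference of 0.36 in the arch (adjusted p = 0.685). The ratio of Ppp1r15a to Ppp1r15b counts was 0 to 0.961 in thymus, 0.805 to 3.27 in adipose tissue and 1.86 to 5.23 in arch, so arch and thymus did not overlap.

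Of 32 tested targets of ATF4 and CHOP, 3 rose and 0 fell in each tissue (9.38%), where 3.99% of all genes rose in the arch and 2.17% in adipose tissue. The median log2 difference of the list was 0.31 in the arch and 0.64 in adipose tissue. Its estimates ran from -3.35 (Mars, adjusted p = 0.0688, limma) to 5.72 in the arch, and from -1.26 (Shmt2) to 4.88 in adipose tissue. Slc3a2, the heavy chain of amino acid transporters, rose by 1.89 ± 0.29 on the log2 scale in the arch (adjusted p = 0.00042, limma) and by 1.64 ± 0.29 in adipose tissue (adjusted p = 0.00216). Slc38a2, a transporter of neutral amino acids, rose in the arch by 1.32 ± 0.21 (adjusted p = 0.000508). Slc7a11, the cystine transporter that pairs with Slc3a2, rose in adipose tissue by 1.84 ± 0.44 (adjusted p = 0.024), a call lost without thymus pool 3 (0.064) or without adipose pool 1, 2 or 4 (0.0576, 0.0839 and 0.0821), in pools 2 to 4 (0.0885), with no filter on low values (0.0667) and under edgeR (0.0532). Cebpb, a transcription factor and partner of CHOP, had counts of 1.13, 5.98, 239 and 0 in the thymus pools and 937 to 1589 in adipose tissue. In arch pools 1 to 4 its counts were 555, 4143, 1881 and 4773, highest in pools 2 and 4, which held markers of other cells. Cebpb rose by 5.72 ± 0.93 in the arch (adjusted p = 0.000643) and 4.88 ± 0.93 in adipose tissue (adjusted p = 0.00402). Without arch pools 2 and 4 the arch difference was 4.67 (adjusted p = 0.0307, limma). Both Cebpb calls were lost under edgeR (adjusted p = 0.0578 and 0.181), and its size moved with the pseudocount, to 8.11 and 7.27 with 1 and to 4.04 and 3.23 with 100, and with thymus pool 3, to 6.60 and 5.77 without it. Asns, Trib3 and Chac1, which are widely used as ATF4 targets, were below the filter on low values, with 0 in every thymus pool and at most 458 normalised reads in any pool.

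**Figure D4:**
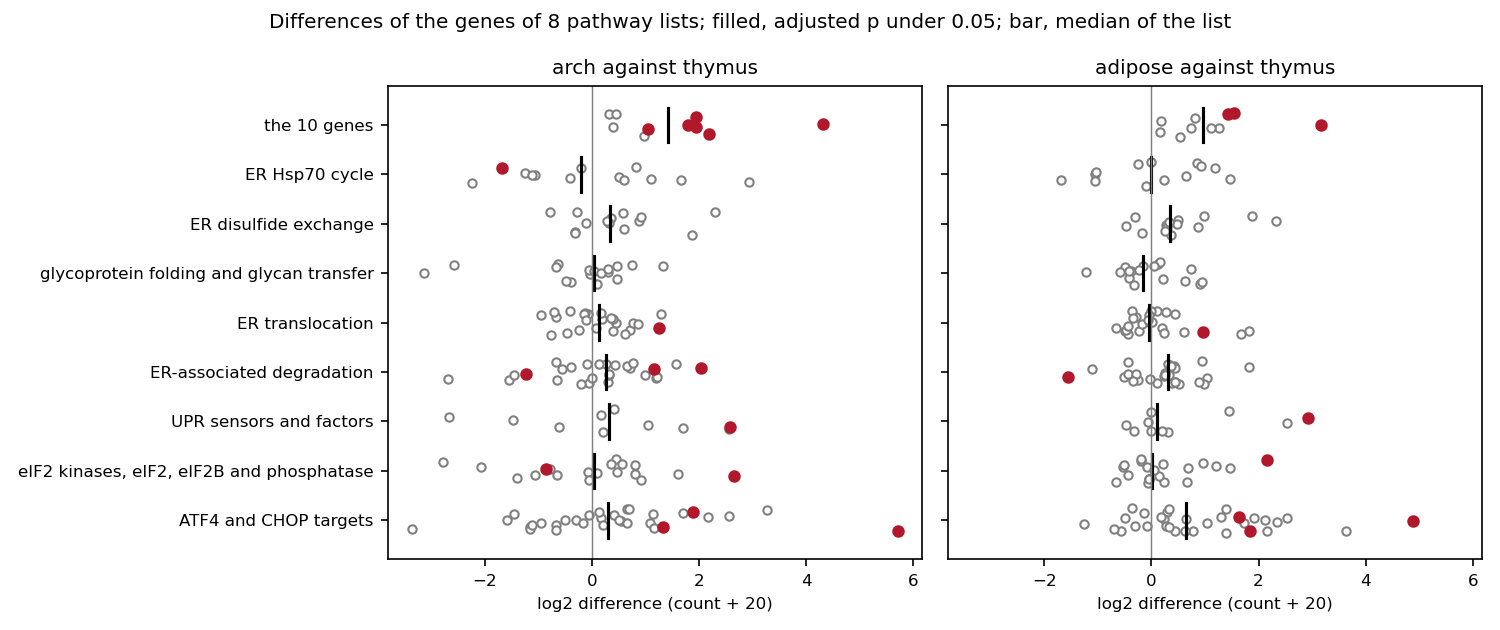
Log2 difference of (count + 20) of the 10 genes and of the tested genes of 8 pathway lists in the arch against thymus (left) and adipose tissue against thymus (right); each point is a gene, bars are list medians, and filled points have an adjusted p under 0.05. The median of the 10 genes is 1.43 and 0.96, and those of the 8 lists lie between -0.21 and 0.64.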

How the data were processed

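The deposited table held 1 column for each of 12 pools, matched to the labels by the number in each description. Its signal values are counts that the authors had divided by a size factor per column, as the values show: all 120369 values above 0 were whole multiples of the column's step (100%, within 0.01). Alignment used STAR 2.6.0c to GRCm38 with FastQC 0.11.5, per the submitters' processing notes. Which tool and annotation were used for counting is not given in the sources used here. Positions and transcript lengths (longest principal transcript) came from GENCODE M21 and promoter windows from RefSeq.

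Normalised counts were tested as log2(count + 20) with limma 3.58.1 (trend, all 12 columns, tissue as the factor; R 4.3.3), on genes reaching 100 in 4 or more columns, threshold 0.05 after Benjamini-Hochberg adjustment. The replicate is the pool; libraries of a pool were already joined. On the recovered reads, edgeR 4.0.16 called 365 genes in arch against thymus and DESeq2 1.42.0 called 1257. The fits were tested on simulated data. Reads of a member per column ran from 0 (Ppp1r15a) and then 334 to 27863; reads amplified from 200 cells are not independent molecules, so these numbers do not bound the sampling error.

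All 10 genes are named, and from each pathway list up to 4 called genes with the smallest p in each comparison. The members and lists were chosen with earlier results of these data known. Alternatives were other pseudocounts (1, 100), no filter, TMM scaling, edgeR, DESeq2, the pool number as a block and pools 2 to 4. Others left out the columns with fewest reads per library, or each pool in turn. Leaving out arch pools 2 and 4 together was added after seeing the data. Symbols listed under older names were matched through the reference tables.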

Additional observations from a re-analysis of the deposited data

Results flagged for a closer look

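Calr in the arch had 1 pool far from the others: pool 4, with 4175 normalised reads against 2326 to 2571 in pools 1 to 3. The gap to the nearest pool was 0.868 of the range of the 4 pools, above the critical value of Dixon's test at the 95% level. Of 30 groups of 4 pools examined (10 genes in 3 tissues) this was the 1 that passed, and chance passes about 1 in 20. Arch pool 4 also held 146988 summed normalised reads of fibroblast markers, and the part of these in the Calr value was not tested. Without that pool the log2 difference of Calr from thymus was 0.79 (limma, adjusted p = 0.273).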

How the results depend on the processing

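No recomputed difference of a named gene changed direction under any setting tried. The 10 genes gave 4 to 6 calls in arch against thymus, 1 to 4 in adipose tissue against thymus and none between arch and adipose tissue. The median log2 difference of all genes did move. In arch against thymus it was -0.20, but -0.06 under edgeR and -0.01 without arch pools 2 and 4. Between arch and adipose tissue it went from -0.17 to 0.02 without arch pools 2 and 4. In adipose tissue against thymus it went from -0.01 to 0.03 with TMM scaling. The 27 calls of named genes were recomputed 486 times in all and were lost in 85 of these; the 21 differences not called passed in 4 of 378. The counts of calls moved more. In arch against thymus, 598 genes were called by limma, 365 by edgeR (278 higher and 87 lower, against 363 and 235) and 1257 by DESeq2. In pools 2 to 4 there were 336, and without arch pools 2 and 4 there were 334. Without the 3 columns with fewest reads per library (thymus pool 3, arch pools 2 and 4) there were 308. The 11 pathway genes (8 higher and 3 lower) became 7 under edgeR, 23 under DESeq2 and 7 without the 3 columns. Under edgeR and without the 3 columns, 7 were higher and 0 lower. In adipose tissue against thymus, 259 genes became 705 under DESeq2 and 161 in pools 2 to 4, and ran from 169 to 250 with 1 pool left out, while the 10 genes gave 1 call in pools 2 to 4 (Hspa5) and 1 to 4 with 1 pool left out. They gave 1 without thymus pool 2, adipose pool 3 or adipose pool 4. The 7 pathway genes became 3 in pools 2 to 4. Between arch and adipose tissue, 16 genes became 9 with a pseudocount of 1, 2 with no filter, 8 under edgeR and 289 under DESeq2 (118 higher and 171 lower, against 9 and 7). They became 0 both without the 3 columns with fewest reads per library and without arch pools 2 and 4, and ran from 2 to 14 with 1 pool left out. In that comparison, 3 pathway genes were called by DESeq2. Fewer pools enter the fits that leave columns out; the cause of the other moves was not tested.

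The labels do not say that a pool number marks the same mice. Columns with the same number had correlations of deviations from -0.0316 to 0.0756, others from -0.0875 to 0.0731, and the best partner had its own number in 11 of 24 checks. With the replicate block, 608, 243 and 12 genes were called in the 3 comparisons and the 10 genes gave 6, 2 and 0 calls; Dnajb9 in adipose tissue had an adjusted p of 0.0563.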
